A study of Mus musculus with 35 samples.

Results

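The Id (inhibitor of DNA binding) family comprised 4 members, Id1, Id2, Id3 and Id4, chosen by gene name from the 53465 genes of the deposited count table, and each name matched 1 gene. Bulk RNA sequencing had been performed on KC-shSmad4 tumor cells, which are lines from primary pancreatic ductal adenocarcinomas of mice with Ptf1a-Cre, a Rosa26 LSL-rtTA3-IRES-mKate2 reporter and a doxycycline (Dox)-inducible, GFP-linked short hairpin RNA against Smad4 at Col1a1, further transduced with firefly luciferase. The cells were grown in female athymic nude (Foxn1nu) hosts of 6 to 8 weeks of age, which lack T cells but keep other immune cells, after injection of 100000 cells into the pancreas (primary tumors), 400000 into the spleen followed by splenectomy (liver metastases) or 250000 into the tail vein (lung metastases). All hosts received Dox chow, which switches the hairpin on. By the study's description, Dox was continued in the groups labeled Smad4 off. In those labeled Smad4 on it was withdrawn after 4, 5 or 6 weeks for pancreas, liver and lung, respectively. Smad4 mRNA went against these labels, as given below. mKate2+ cells were sorted 7 or 14 days after the switch. The 35 libraries made up 12 groups, 18 labeled off and 17 labeled on. Off and on groups held 3 and 2 mice for pancreas day 7, 2 and 3 for liver day 7, 4 and 2 for lung day 7, 2 and 3 for pancreas day 14, 3 and 3 for liver day 14, and 4 and 4 for lung day 14. Several independent cell lines were used in the study, and the labels do not say which line gave which library, so p-values measure the spread between these libraries.

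Id proteins are small helix-loop-helix proteins without a basic DNA-binding region. They pair with the E proteins Tcf3, Tcf4 and Tcf12 and keep them, and the tissue-specific basic helix-loop-helix (bHLH) factors that need them, off DNA. Id1, Id2 and Id3 are textbook early targets of bone morphogenetic protein (BMP) signaling through SMAD1, SMAD5 and SMAD4, whereas transforming growth factor-β (TGFβ) lowers Id1 in many epithelial cells through SMAD3 and Atf3. Differences between the groups labeled on and off therefore address whether these direct SMAD outputs moved with the Smad4 label, and whether they did so alike in the 3 organs.

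In the GRCm38 annotation Id1 (ENSMUSG00000042745) lay at chr2:152736251-152737410 on the plus strand. Id2 (ENSMUSG00000020644) lay at chr12:25093799-25097140 on the minus strand, Id3 (ENSMUSG00000007872) at chr4:136143497-136145755 on the plus strand, and Id4 (ENSMUSG00000021379) at chr13:48261228-48266026 on the plus strand. No other annotated gene overlapped Id1, Id2 or Id3. Id4 was overlapped at its start by 2 genes of the opposite strand, A330033J07Rik and Gm49291, so reads there could be divided only if strand was used in counting, which is not given in the sources used here.

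Promoter sequences are shown because these genes are read as SMAD targets. RefSeq sequence (GRCm38.p6) was matched for 3 of the 4 members, and the 250 bases before the RefSeq transcription start were searched on both strands for CAGAC, the core of the SMAD-binding element, and for GGCGCC, a GC-rich SMAD motif. These motifs do not overlap each other. The windows of Id2 (chr12:25096093-25096342, minus strand) and Id3 (chr4:136143572-136143821, plus strand) read as follows, 5′ to 3′, with motif letters in capitals. Both windows lie inside the annotated gene spans given above, which begin farther upstream than these RefSeq starts.
Id2: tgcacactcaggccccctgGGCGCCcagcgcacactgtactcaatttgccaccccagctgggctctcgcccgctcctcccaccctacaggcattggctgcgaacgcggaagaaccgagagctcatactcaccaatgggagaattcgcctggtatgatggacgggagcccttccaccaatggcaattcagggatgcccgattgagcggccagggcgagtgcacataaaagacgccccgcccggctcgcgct
Id3: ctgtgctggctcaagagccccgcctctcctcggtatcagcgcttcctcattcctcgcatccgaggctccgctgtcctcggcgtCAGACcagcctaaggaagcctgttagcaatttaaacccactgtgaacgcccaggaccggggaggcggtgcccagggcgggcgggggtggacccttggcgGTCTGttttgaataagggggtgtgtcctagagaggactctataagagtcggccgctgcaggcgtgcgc
Id3 held CAGAC 167 bases before its start and the reverse complement 68 bases before it, while Id2 held GGCGCC 231 bases before its start. Id4 held GGCGCC 148 bases before its start. Of all 32851 windows of this length, 42.2% held CAGAC or its complement and 9.59% held GGCGCC, so a match is a description and not evidence of a site.

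Sequencing totals ranged from 11885461 to 43571007 counts, with a median of 19415320, and 3 counts were taken as the floor of detection. In pancreas day 14 the totals split by label, at 28557488 to 32195795 counts (off) and 12200163 to 14255679 counts (on). Label and depth cannot be told apart there. Values are CPM (counts scaled to the library total) and, between genes, RPKM (CPM per kilobase of transcript). Smad4 mRNA went against the group names. It measured 14.4 to 23.2 CPM in the 17 libraries labeled on and 77.9 to 132 CPM in the 18 labeled off, so groups are called by their labels throughout and fold changes are labeled on over labeled off. The split held in every organ and on both days, with the low values in the libraries said to be without the hairpin. Whether the labels were exchanged is not settled by the sources used here, and if they were, the sign of every fold change by label would turn. The carcinoma epithelial markers fixed for the sorted cells were detected in every library, with none at 0 and summed levels of 2815 to 18980 CPM. These sums differed by organ, at 2815 to 8489 CPM in the pancreas, 7298 to 14128 CPM in the lung and 3497 to 18980 CPM in the liver. Fibroblast markers were not absent from the mKate2+ cells: the 10 markers summed to 9594 to 25695 CPM in the pancreas, against 154 to 2230 CPM in the lung. In bulk cells, fewer cells of a type and less RNA per cell cannot be told apart. The liver day 7 off library of mouse 2, the only paired-end library, stood apart from the other livers, with 30783 CPM of fibroblast and 372 CPM of acinar markers against at most 4306 and 16.9 CPM in the other 10. The liver day 7 changes of Id1, Id2 and Id3 by label are given with and without it. So are their day 7 differences between liver and lung responses, and the Id differences of liver from another organ, labeled off, that passed.

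Id1, Id2 and Id3 were abundant and Id4 was near the floor. Per length, Id1 averaged 78.5 ± 41.7 RPKM (SD, n = 35), Id3 56.0 ± 29.1 RPKM and Id2 48.9 ± 14.0 RPKM. Id4, a member best known from neural and mammary development, averaged 0.081 RPKM. Its 35 libraries held 0 to 38 counts each and 250 in total. By group mean, Id1 was lowest in the pancreas, Id3 was lowest in the lung, and Id2 did not pass the test between any organs.

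**Figure D1:**
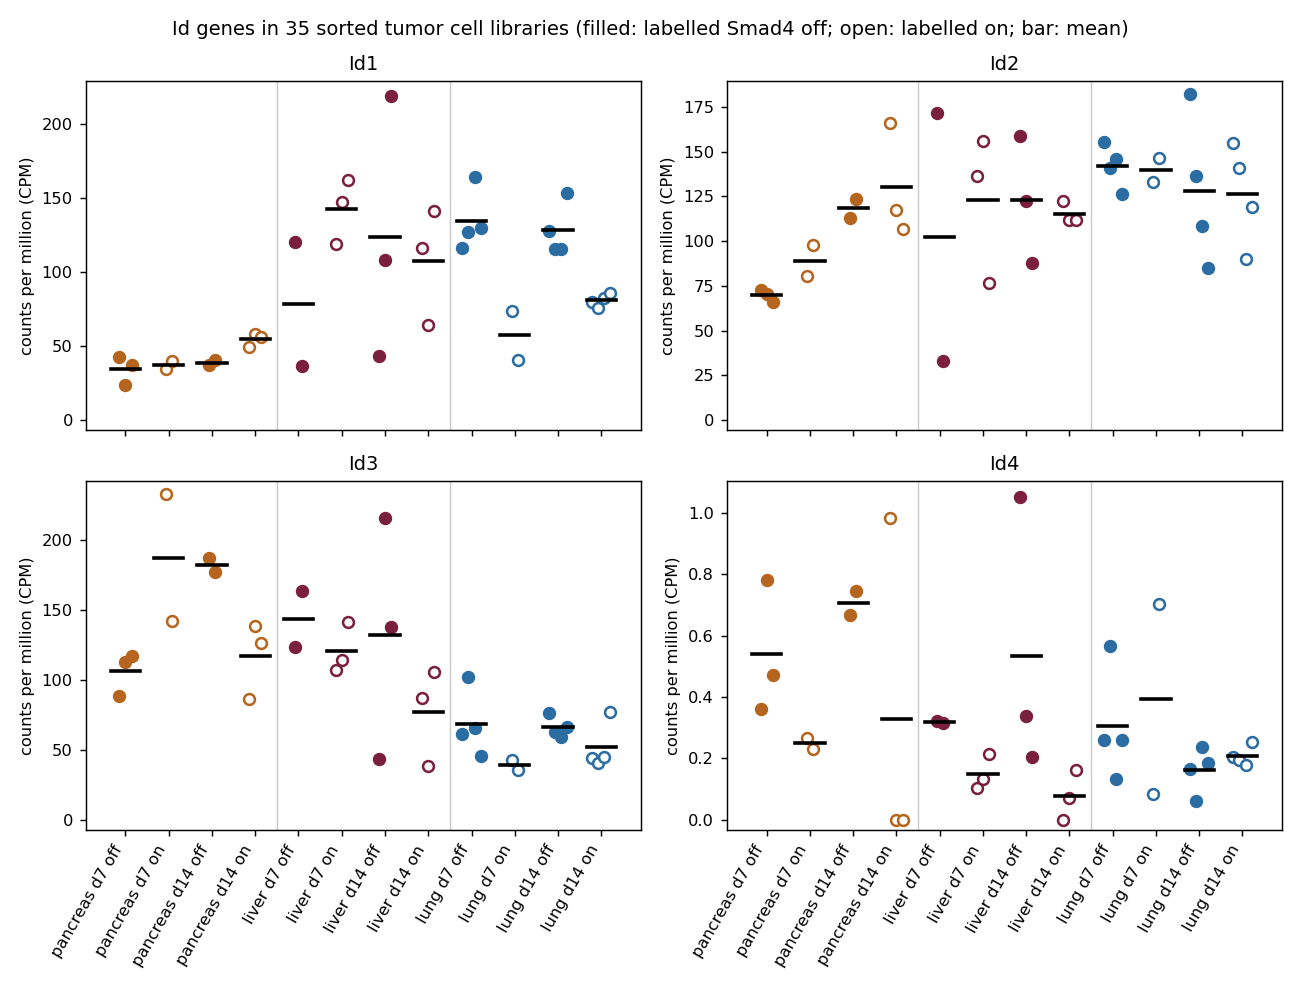
CPM of each Id gene in every library by organ, day and label; filled points are labeled Smad4 off, open points labeled on, and bars are group means. Id1 stays at or below 58.3 CPM in all 10 pancreas libraries, the 6 lung libraries labeled on lie below the 8 labeled off for Id1, and Id4 never exceeds 1.05 CPM.

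Id1, the family member most often read as a BMP target, was low in primary tumors. In pancreas day 7 it measured 42.6, 23.6 and 37.4 CPM in the mice labeled off and 34.7 and 39.7 CPM in those labeled on. By pancreas day 14 the values were 37.3 and 40.6 CPM (off) and 49.3, 58.3 and 56.1 CPM (on). The day 14 groups did not overlap, as was so for 49.1% of genes tested at these group sizes, and the day 7 groups did.

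In liver metastases Id1 was higher and more variable. Liver day 7 gave 120 and 36.6 CPM in the mice labeled off, the second being the paired-end library, and 119, 147 and 162 CPM in those labeled on. Liver day 14 gave 43.5, 108 and 219 CPM (off) and 117, 64.0 and 142 CPM (on). The coefficient of variation was 71.9% in the liver day 14 off group against 5.37% in the lung day 14 on group, so the livers of one label spanned most of the range seen in all libraries.

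In lung metastases Id1 separated by label. On day 7 it measured 116, 127, 165 and 130 CPM in the mice labeled off but 73.9 and 40.9 CPM in those labeled on. Mouse 1 of this on group had the lowest total of all 35 libraries, 11885461 counts. It had counts for 17580 genes, against 19908 to 23428 in the other libraries. On day 14 the 4 mice labeled off had 128, 116, 116 and 153 CPM, while those labeled on had 79.9, 75.7, 82.4 and 86.0 CPM. Every lung library labeled on was thus below every one labeled off on both days. Each day alone, 10.6% and 4.98% of genes tested did not overlap. Of 16220 genes tested over both days in the lung, 0.444% showed no overlap between these 6 and 8 libraries and 0.265% none with the on libraries lower.

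Across the 12 groups ordered by mean Id1, only 1 of 11 neighboring pairs did not overlap, pancreas day 14 on (54.6 ± 4.69 CPM) and pancreas day 14 off (39.0 ± 2.33 CPM). The order ran from liver day 7 on (143 ± 21.7 CPM) and lung day 7 off (135 ± 20.9 CPM) at the top to pancreas day 7 off (34.5 ± 9.82 CPM) at the bottom. Neighbors elsewhere in this order are not distinguished by these libraries.

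Id3, which shares the BMP response of Id1 and is also abundant in stromal cells, showed another order. In pancreas day 7 it measured 88.2, 113 and 117 CPM (off) and 233 and 142 CPM (on). On pancreas day 14 it measured 187 and 177 CPM (off) and 86.4, 139 and 126 CPM (on). Id3 lay higher in the libraries labeled on at day 7 and lower in them at day 14, without overlap at either day, as did 43.1% and 49.1% of all genes tested at these group sizes.

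Among liver metastases Id3 was 123 and 164 CPM (off) and 107, 114 and 141 CPM (on) on day 7. Liver day 14 gave 43.2, 216 and 138 CPM (off) and 87.0, 38.6 and 106 CPM (on), with overlap at both days. Mouse 1 of the liver day 14 off group was low for both genes, at 43.5 CPM of Id1 and 43.2 CPM of Id3, and so was mouse 2 of the on group, at 64.0 and 38.6 CPM.

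The lung held the lowest Id3 values. Lung day 7 gave 61.3, 102, 65.4 and 45.5 CPM (off) and 43.1 and 35.7 CPM (on), which did not overlap, as was so for 10.6% of genes tested. Lung day 14 gave 76.7, 62.9, 59.2 and 66.2 CPM (off) and 44.3, 40.6, 45.2 and 77.1 CPM (on). In that last group 3 mice were below every library labeled off and mouse 4 was above them all. By group mean, Id3 ran from pancreas day 7 on (187 ± 64.2 CPM, n = 2) to lung day 7 on (39.4 ± 5.18 CPM, n = 2), with 1 of 11 neighboring pairs not overlapping, pancreas day 14 off (182 ± 6.75 CPM) over liver day 7 off (144 ± 28.6 CPM).

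Id2, which is known from lymphoid cells and as a partner of the retinoblastoma protein, varied least. Its group means ran from 142 ± 12.1 CPM in lung day 7 off to 69.8 ± 3.29 CPM in pancreas day 7 off. Pancreas day 7 was lowest, with 72.7, 70.5 and 66.2 CPM (off) below 80.5 and 97.7 CPM (on), a separation shared by 43.1% of genes tested. Pancreas day 14 gave 113 and 124 CPM (off) and 166, 118 and 107 CPM (on). Across the 14 lung libraries Id2 ranged from 85.3 to 182 CPM with both labels overlapping on both days. The lowest of all 35 values was 32.9 CPM in the paired-end liver library, whose group mate had 171 CPM.

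Id4 had at least 1 count in 32 of 35 libraries and was under the floor of 3 counts in 8 of the 35. Counts of 0 came from 2 mice of pancreas day 14 on and 1 of liver day 14 on, which allows up to 0.239, 0.246 and 0.0853 CPM, respectively, at the depth of those libraries. The highest count, 38 in liver day 14 off mouse 1, stood for 1.05 CPM. Differences of Id4 were mostly not detectable at this depth, and the floor covers counting error only.

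None of the Id genes was called (over 2-fold with an adjusted p under 0.05, the study's thresholds, here in edgeR's quasi-likelihood test) for labeled on against labeled off in any organ or at any day. With DESeq2, the tool of the study, Id1 was called in lung day 7. The share of all genes tested that passed in edgeR was 1.33% in pancreas day 7, 4.64% in pancreas day 14, 0.444% in liver day 7, 0% in liver day 14, 0% in lung day 7 and 0.0271% in lung day 14. In liver day 14 and lung day 7, where no gene passed in edgeR, 9.68% and 5.22% of genes had an unadjusted p under 0.05. In simulated data with 4-fold changes the test recovered 52% of the changed genes in liver day 14 and 49.5% in lung day 7. It recovered 77% in lung day 14 and 17% in liver day 7. The Id changes by label given below were smaller than 4-fold, and recovery at their size was not simulated.

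The lowest fold changes of Id1 by label were in the lung. In lung day 7 the libraries labeled on (57.4 ± 23.3 CPM, n = 2) held 42.7% of the level in those labeled off (135 ± 20.9 CPM, n = 4), a log2 fold change of -1.16 (SE 0.24, edgeR adjusted p = 0.604). In lung day 14 they held 63.2% (81.0 ± 4.35 against 128 ± 17.8 CPM, n = 4 each), a log2 fold change of -0.71 (SE 0.14, edgeR adjusted p = 0.190). By unadjusted p, Id1 ranked 57 of 15193 genes on day 7 and 56 of 14751 on day 14. When both days were fitted together with day as a covariate, the log2 fold change was -0.89 (SE 0.14, edgeR adjusted p = 0.0210), past the adjusted threshold, as were 0.203% of genes, but under 2-fold. For day 14 a fit with mouse number as a replicate block gave -0.70 (edgeR adjusted p = 0.0245), again under 2-fold. That pairing was taken from these same data, so its p-value is given as a description. DESeq2 called Id1 in lung day 7 (log2 fold change -1.15, adjusted p = 0.00666) and gave an adjusted p of 0.00273 in lung day 14.

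Libraries with counts for the mitochondrial gene mt-Co3 (10 of 35) were spread over liver and lung, and the Id1 difference was read within them and within the rest. In lung day 14 it was -0.64 on the log2 scale in the 4 libraries without such counts and -0.66 in the 4 with them. In lung day 7 it was -0.86 without and -1.65 with them, the latter from 1 library per label. Endothelial cells express Id1 strongly, and their 10 markers summed to 45.7 to 110 CPM in lung day 14 off and to 82.7 to 120 CPM in lung day 14 on, so this marker sum was not lower where Id1 was lower. In lung day 7 the sums were 42.3 to 84.8 CPM (off) and 53.9 to 87.4 CPM (on), although 8 of the 10 single markers had a fold change below 0, with a median of -0.61 on the log2 scale. Fibroblast markers summed to 417 to 2230 CPM (off) and 154 to 432 CPM (on) in lung day 7, with 10 of 10 below 0, and to 158 to 903 and 319 to 1637 CPM in lung day 14, with 9 of 10 above 0. No endothelial or fibroblast marker passed the test on either day, where 0% (day 7) and 0.0271% (day 14) of all genes did. The part of these markers in the Id1 values was not tested.

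In pancreas day 14 Id1 was higher with the label. The libraries labeled on held 140% of the level in those labeled off, a log2 fold change of 0.39 (SE 0.10, edgeR adjusted p = 0.0421), which passed the adjusted threshold and stayed under 2-fold. Of all genes, 12.9% passed that threshold there and 49.1% did not overlap between these 3 and 2 libraries. The call rested on single mice: leaving out any mouse except on mouse 1 gave an edgeR adjusted p from 0.133 to 0.268, and a single fit of all 12 groups gave 0.907. The change was 0.09 (SE 0.23) on day 7. In the liver the Id1 change was 0.76 (SE 0.48, edgeR adjusted p = 0.372) on day 7, or 0.19 without the paired-end library, and -0.23 (SE 0.55) on day 14.

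**Figure D2:**
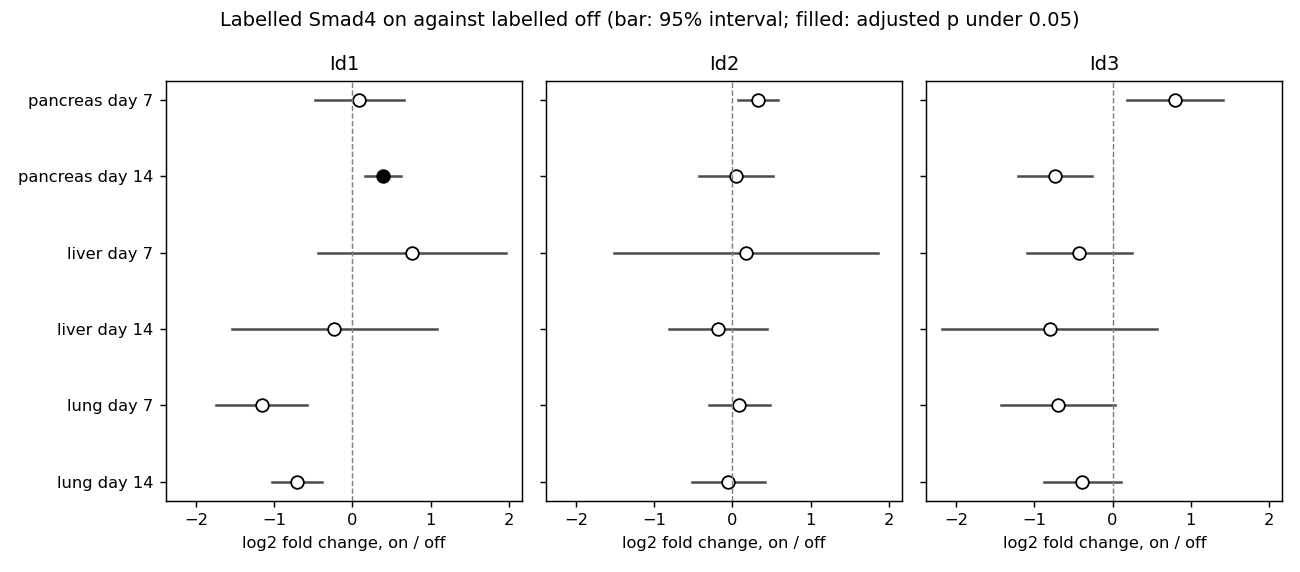
Log2 fold change of Id1, Id2 and Id3 for labeled on over labeled off in each organ and day; points are edgeR estimates, bars 95% intervals, and a filled point has an adjusted p under 0.05. Id1 in the lung is the only gene whose interval lies below 0 on both days, and pancreas day 14 Id1 (0.39) is the only filled point.

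In the pancreas the Id3 estimate had opposite signs on days 7 and 14 and missed the threshold on both in edgeR. Its log2 fold change was 0.80 on day 7 (95% interval 0.18 to 1.41, edgeR adjusted p = 0.141) and -0.73 on day 14 (95% interval -1.20 to -0.27, edgeR adjusted p = 0.0590). With DESeq2 both passed the adjusted threshold under 2-fold, at 0.79 (adjusted p = 0.0265) and -0.74 (adjusted p = 0.00236). Without a filter on low counts the edgeR adjusted p was 0.206 on day 7 and 9.7e-12 on day 14, and in a single fit of 12 groups it was 0.521 and 0.661. The fibroblast marker sum was 12227 to 17744 CPM (off) and 24819 to 25695 CPM (on) on day 7, and 12106 to 12505 CPM (off) and 9594 to 19193 CPM (on) on day 14. Their part in the Id3 values was not tested. The Id3 changes in the liver were -0.42 and -0.80, and in the lung -0.70 and -0.39, on days 7 and 14, and none passed the test (edgeR adjusted p from 0.375 to 0.974).

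For Id2 the changes by label were small. On days 7 and 14 they were 0.33 and 0.04 for pancreas, 0.17 and -0.18 for liver and 0.09 and -0.05 for lung, with edgeR adjusted p from 0.142 to 0.998. The lung day 14 interval of -0.52 to 0.42 was narrower than the liver day 7 interval of -1.51 to 1.85. Without the paired-end library the liver day 7 value was -0.54. Among the 6 label comparisons Id4 passed the filter on low counts in pancreas day 14 alone, with a log2 fold change of -1.10 (SE 1.15, edgeR adjusted p = 0.585).

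Whether the Id1 response differed between liver and lung was tested as an interaction. On day 7 the liver response exceeded the lung response by 1.97 on the log2 scale (SE 0.57, 95% interval 0.70 to 3.23, edgeR adjusted p = 0.0872), which missed the threshold, with 1.86% of genes called. DESeq2 (1.94, adjusted p = 0.0118) and a single fit of all 12 groups (2.02, edgeR adjusted p = 0.0232) called it. Without the paired-end library the difference was 1.39 (edgeR adjusted p = 0.133), with 1 liver day 7 off library left, which is assumed to vary like the other groups. On day 14 it was 0.48 (SE 0.55), where no gene was called in edgeR and 3.01% had an unadjusted p under 0.05. For Id2 and Id3 the interaction was 0.12 and 0.35 on day 7 and -0.12 and -0.41 on day 14, with edgeR adjusted p of 0.711 and above. Without the paired-end library the day 7 values were -0.60 for Id2 and 0.66 for Id3. Liver and lung each had their own libraries of both labels, so no library was shared between the responses.

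Id1 and Id3 differed between organs of growth. Among libraries labeled off, with day as a covariate, Id1 was 23.6, 37.4 and 42.6 CPM (lowest, median, highest; n = 5) in pancreas tumors, 36.6, 108 and 219 CPM (n = 5) in liver metastases and 116, 128 and 165 CPM (n = 8) in lung metastases. Every lung library exceeded every pancreas library, as was so for 20.3% of genes in either direction, and the liver overlapped with the pancreas. Lung was 1.71 above pancreas on the log2 scale (SE 0.31, edgeR adjusted p = 0.000655) and liver 1.44 above pancreas (SE 0.33, edgeR adjusted p = 0.0112), both over 2-fold. The liver minus lung difference was -0.27 (95% interval -0.89 to 0.35). The shares of all genes called were 18.4% for lung against pancreas, 8.68% for liver against pancreas and 3.95% for liver against lung. Without the paired-end library liver was 1.72 above pancreas (edgeR adjusted p = 0.000562).

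Among libraries labeled on, Id1 was 34.7, 49.3 and 58.3 CPM (lowest, median, highest; n = 5) in pancreas tumors, 64.0, 130.4 and 162 CPM (n = 6) in liver metastases and 40.9, 77.8 and 86.0 CPM (n = 6) in lung metastases. Every liver library exceeded every pancreas library here, and 28% of genes tested did not overlap. Liver was 1.50 above pancreas (SE 0.23, edgeR adjusted p = 9.5e-05), with 22.2% of genes called. Lung was 0.61 above pancreas (SE 0.22, edgeR adjusted p = 0.0512), which missed the threshold, with 13.6% of genes called. Liver exceeded lung by 0.88 (SE 0.22, edgeR adjusted p = 0.0101), under 2-fold, with 10.3% of genes called. The 3 comparisons within a label share libraries pairwise and are not independent of each other.

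Id3 had its break between the lung and the other organs. Labeled off, it was 88.2, 117 and 187 CPM for pancreas, 43.2, 138 and 216 CPM for liver and 45.5, 64.1 and 102 CPM for lung (lowest, median, highest). The lung was 1.16 below the pancreas (log2 fold change -1.16, SE 0.28, edgeR adjusted p = 0.00439) and the liver 1.15 above the lung (SE 0.28, edgeR adjusted p = 0.0229). Liver and pancreas differed by -0.01 (95% interval -0.68 to 0.65). The liver over lung difference rested on single mice, since without the paired-end library it was 0.94 (edgeR adjusted p = 0.0602) and without liver day 14 off mouse 2 it was 0.97 (edgeR adjusted p = 0.0717). Without pancreas day 14 off mouse 1 the lung against pancreas difference was -0.97 (edgeR adjusted p = 0.0250), under 2-fold.

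Labeled on, Id3 was 86.4, 139 and 233 CPM for pancreas, 38.6, 106.4 and 141 CPM for liver and 35.7, 43.7 and 77.1 CPM for lung. Lung and pancreas did not overlap, and 15.3% of all genes tested shared that property. The log2 fold change was -1.52 (SE 0.29, edgeR adjusted p = 0.00146), with 13.6% of genes called. Liver was 0.99 above lung (SE 0.29, edgeR adjusted p = 0.0238), just under 2-fold, and liver against pancreas was -0.53 (SE 0.29, edgeR adjusted p = 0.152).

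**Figure D3:**
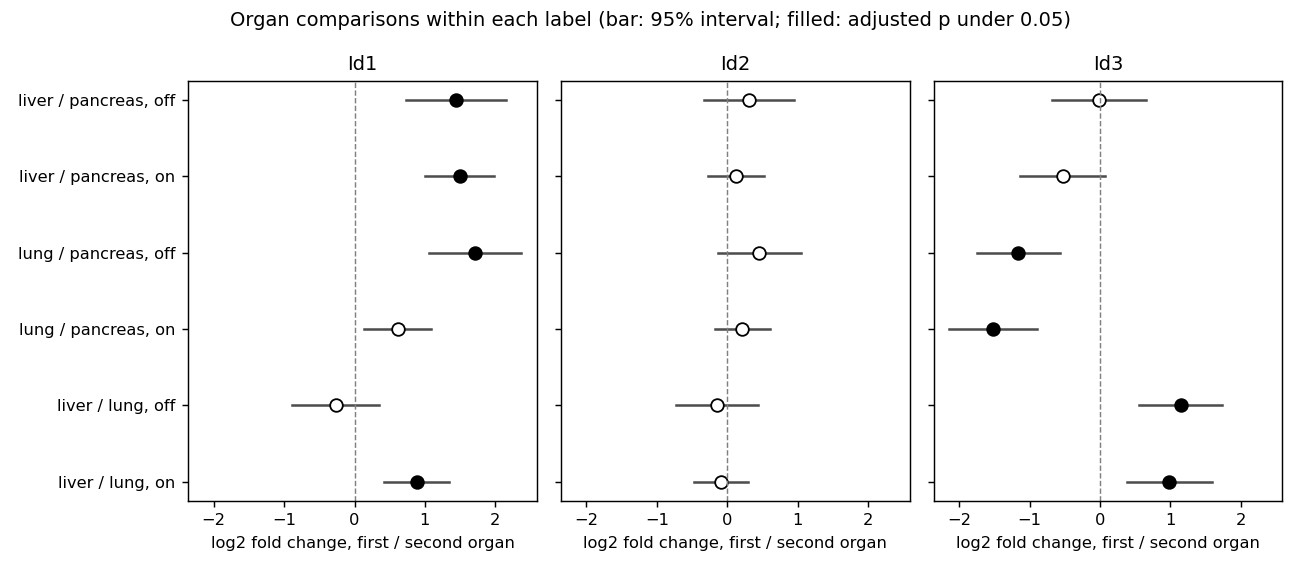
Log2 fold change of Id1, Id2 and Id3 between organs of growth within libraries labeled off or on, with day as a covariate; points are edgeR estimates, bars 95% intervals, and a filled point has an adjusted p under 0.05. Id1 lies above 0 in both metastasis sites against the pancreas, Id3 below 0 in lung against pancreas, and every Id2 interval crosses 0.

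Cell type markers moved with these organ differences. All 10 fibroblast markers were lower in lung than in pancreas in the libraries labeled off, and their sum was 154 to 2230 CPM in the lung, 246 to 30783 CPM in the liver and 9594 to 25695 CPM in the pancreas over both labels. The low Id3 of the lung thus went with low fibroblast markers, although liver libraries with at most 1051 CPM of these markers still ranged from 38.6 to 141 CPM of Id3. Endothelial markers were lower in liver than in lung for 9 of 10 genes with either label, summing to 9.09 to 72.8 CPM in the liver and 42.3 to 120 CPM in the lung. The 8 liver libraries with at most 17.9 CPM of endothelial markers held 64.0 to 219 CPM of Id1. Carcinoma epithelial markers had a median sum of 4699 CPM in the pancreas, 10081 CPM in the lung and 15763 CPM in the liver over both labels. Their median was thus lowest in the pancreas, where Id1 was low. The part of any of these cell types in the Id values was not tested.

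**Figure D4:**
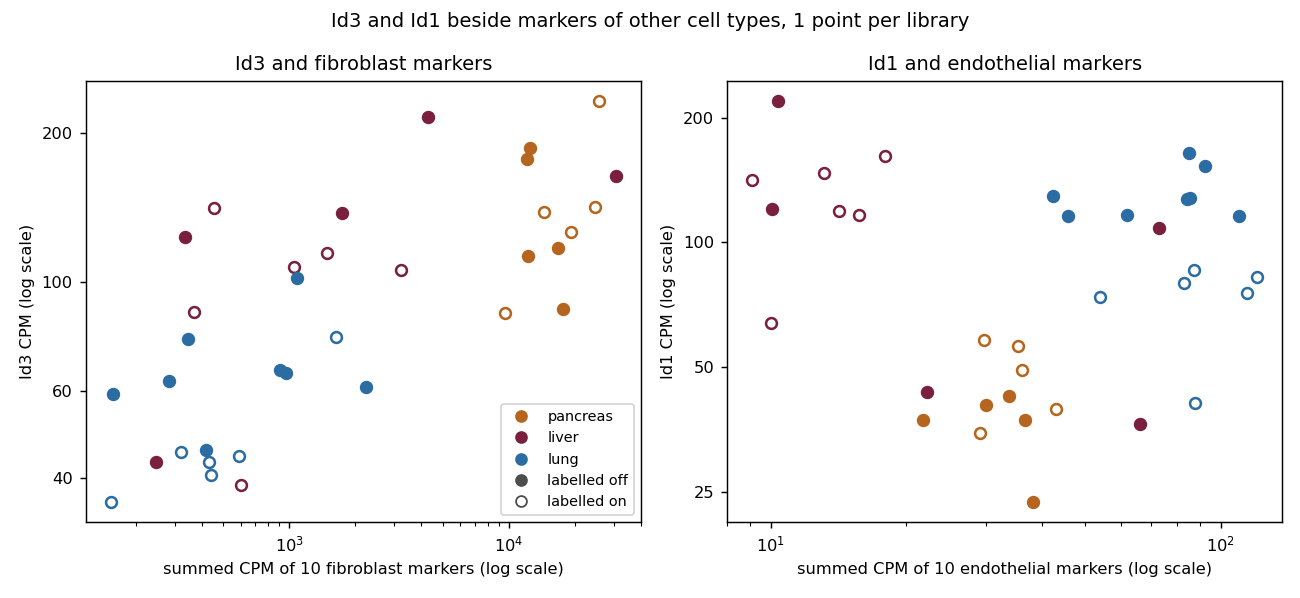
Left, Id3 CPM against the summed CPM of 10 fibroblast markers; right, Id1 CPM against the summed CPM of 10 endothelial markers, 1 point per library on log axes, colored by organ and filled for labeled off. The pancreas lies at the right of the fibroblast axis (9594 to 25695 CPM), and liver libraries reach high Id1 at the lowest endothelial sums.

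Id2 did not pass in any organ comparison (log2 fold change from -0.14 to 0.46, edgeR adjusted p from 0.214 to 0.827). The largest, lung over pancreas labeled off, had a 95% interval of -0.13 to 1.04. Id4 was lower in lung than in pancreas labeled off (0.234 ± 0.151 against 0.605 ± 0.181 CPM, n = 8 and 5), a log2 fold change of -1.47 (SE 0.48, edgeR adjusted p = 0.0249). This call rested on 1 to 11 counts per lung library, with 3 of the 8 under the floor. The call was lost in 5 of 18 fits that left out a mouse, at edgeR adjusted p up to 0.0804. It was also lost without a filter on low counts (0.0556), in a single fit of 12 groups (0.0753) and with the mt-Co3 covariate (0.0548). No Id gene differed between day 14 and day 7 within a label (log2 fold change from -0.63 to 0.27, edgeR adjusted p from 0.751 to 0.984), where 0% of genes were called in edgeR and 7.46% (off) and 7.51% (on) of genes had an unadjusted p under 0.05.

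The dimerization partners of the Id proteins also differed by organ. Tcf4 and Tcf12 were lower, and Tcf3 did not pass, in liver and in lung against pancreas with either label. Of all genes, 15% and 34.4% passed the adjusted threshold in these comparisons labeled off, and 40.6% and 27.5% labeled on. Fibroblast markers moved with them: labeled off, 10 of 10 were lower in lung (median -4.74 on the log2 scale) and 3 of 10 in liver (median -1.57), labeled on 10 of 10 in both, and their part in the E protein and pathway values between organs was not tested. Labeled off, Tcf4 was 53.0 ± 10.8 CPM in the lung (n = 8) and 261 ± 52.4 CPM in the pancreas (n = 5), a log2 fold change of -2.45 (SE 0.36, edgeR adjusted p = 0.000151). Tcf12 was 131 ± 28.2 and 227 ± 23.5 CPM (-0.94, SE 0.13, edgeR adjusted p = 0.000112). By label, Tcf4 fell by 0.69 in pancreas day 14 (edgeR adjusted p = 0.0316), the only E protein to pass in any of the 6 comparisons. Of all genes, 12.9% passed there and 0% to 2.24% in the other comparisons by label.

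Genes of the BMP ligand list passed the test by label in the pancreas and none did in the liver or lung. Few genes of any kind passed in those 2 organs, at 0.444% and 0% of all genes in the liver and 0% and 0.0271% in the lung on days 7 and 14. Results by label in pancreas day 14, here and in the lists below, carry the split of depth given above. In pancreas day 14, where 2 of the 9 tested were higher and 1 lower against 12.9% of all genes passing in either direction, Bmp4, a canonical inducer of Id genes, was 8.77 ± 1.54 CPM (on) and 4.02 ± 0.195 CPM (off), a log2 fold change of 1.03 (SE 0.22, edgeR adjusted p = 0.0207). Bmp3, which opposes other BMPs, rose by 2.46 (edgeR adjusted p = 0.0322) from 0.352 CPM. The lower one, Bmp1, is a procollagen protease listed for its name and not a ligand of this family, and fell by 1.26 (edgeR adjusted p = 0.00181). In pancreas day 7, where 2.24% of all genes passed, 2 of 9 were higher, Bmp3 (2.77, edgeR adjusted p = 0.0320) and Bmp4 (0.99, edgeR adjusted p = 0.0482). The difference of these responses between pancreas and metastases was not tested.

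Of 9 receptors and co-receptors tested in pancreas day 14, 3 were lower and none higher, against 12.9% of all genes passing: Rgmb, a BMP co-receptor (-0.70), the type I receptor Acvr1 (-0.45) and the type II receptor Bmpr2 (-0.41). Smad1 and Smad5, the BMP-activated SMADs, passed in none of the 6 label comparisons, where 0% to 12.9% of all genes passed. Smad4 itself was lower in the libraries labeled on in all of them, by 2.21 to 2.93 on the log2 scale, and passed in 4. Between organs, Smad5 was lower in lung than in pancreas labeled off (-0.74, SE 0.14, edgeR adjusted p = 0.000989) and Acvr1 likewise (-0.94, SE 0.16, edgeR adjusted p = 0.000362), whereas Id1 was higher there.

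In pancreas day 14, 7 of 10 tested inhibitors of BMP and SMAD signaling were lower and 1 higher, with a median log2 fold change of -0.49 against 0.016 for all 14234 genes tested, of which 940 were higher and 897 lower. In pancreas day 7 none of 12 passed (median -0.16). Bambi, a decoy receptor, fell by 1.39 (5.10 ± 0.471 against 12.5 ± 1.24 CPM, edgeR adjusted p = 0.00294). Fstl3, which binds activin and BMPs, fell by 1.32 (edgeR adjusted p = 0.00206), and Smurf1, a ubiquitin ligase for SMADs, fell by 0.50 (edgeR adjusted p = 0.00543). Smad6, the inhibitory SMAD of the BMP branch, rose by 0.70 (16.3 ± 0.976 against 9.41 ± 0.972 CPM, edgeR adjusted p = 0.0207), in the same direction as Id1 in these libraries.

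Of 11 other known BMP and SMAD targets tested in pancreas day 14, 6 were lower and 1 higher (median -0.82), against 12.9% of all genes passing. Bambi and Smad6, which stand in this list too, are given above; Dlx2, a homeobox gene, fell by 1.21 (edgeR adjusted p = 0.00439) and Smad7 fell by 0.49 (edgeR adjusted p = 0.0185). In lung against pancreas labeled off, 2 of 11 were higher and 6 lower, where 34.4% of all genes passed. Dlx3 (2.85, edgeR adjusted p = 0.00110) and Smad6 (1.02, edgeR adjusted p = 0.0415) were higher there, as was Id1. In the lung by label none passed, where 0% (day 7) and 0.0271% (day 14) of all genes did. There 1 of 10 had a fold change above 0 on day 7 (median -0.35, against 0.0030 for all genes) and 2 of 10 on day 14 (median -0.48, against -0.0037). In lung against pancreas, Msx1 (-3.61, edgeR adjusted p = 1.48e-05) and Dlx2 (0.0489 ± 0.0907 CPM in the lung and 12.8 ± 8.11 CPM in the pancreas, edgeR adjusted p = 2.03e-05) were lower, as was Id3.

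Of 7 known regulators of Id transcription tested in pancreas day 14, 2 were higher and 1 lower (median -0.30), against 12.9% of all genes passing. Among the higher ones, Atf3, a repressor of Id1 downstream of TGFβ, rose by 0.63 (1239 ± 217 against 750.4 ± 57.4 CPM, edgeR adjusted p = 0.0306). Atf3 was also higher in lung than in pancreas labeled off (1.10, edgeR adjusted p = 0.00449), where 34.4% of all genes passed. Id1 was higher in both comparisons as well. Of 14 TGFβ-SMAD3 targets, 7 were lower and none higher in pancreas day 14, against 12.9% of all genes passing. Pmepa1, a TGFβ feedback gene, fell by 0.72 (edgeR adjusted p = 0.00339) and Has2, a hyaluronan synthase, fell by 1.13 (edgeR adjusted p = 0.00699). None of the 7 tested Id regulators or the 14 TGFβ-SMAD3 targets passed by label in the lung on either day. Of all genes, 0% passed there on day 7 and 0.0271% on day 14, so these lists could hardly pass. Id1, lower there without overlap, did not pass on either day in edgeR.

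The genes closest to each member over the 35 libraries, by Pearson correlation of log2 CPM across 17546 other genes, are given as descriptions. The points share organ and depth. For Id1 they were Akp3, an alkaline phosphatase (r = 0.90), Slc25a10, a mitochondrial dicarboxylate carrier (0.89), and Megf6 (0.89). For Id2 they were Clu, which encodes clusterin (0.84), Tmem171 (0.83) and Isca2 (0.81). For Id3 they were Usp2, a deubiquitinase (0.83), Olfml2a (0.83) and Lmo1, a LIM-only transcription cofactor (0.81). The members were not each other's nearest genes: r was -0.16 between Id1 and Id3, 0.32 between Id1 and Id2 and -0.42 between Id2 and Id3. Within the 14 lung libraries Id1 and Id3 had r = 0.66.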

How the data were processed

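RNA from 35 sorted libraries had been sequenced by the authors (75-bp reads, polyA-selected). Whole-number counts per gene were deposited by the authors in 1 table of 53465 genes, with annotation columns beside them; the submitters' processing notes name FastQC 0.11.5, Trimmomatic 0.36, STAR 2.5.3a, featureCounts 1.6.3 and mm10 (GRCm38). All columns of the table that hold samples matched a label (0 did not), and no 2 libraries were identical. Groups came from the labels (organ, day, Smad4 label).

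CPM was computed as counts over the library total, and RPKM further per kilobase of annotated transcript. Differences were tested on counts with edgeR 4.0.16 in R 4.3.3 (TMM factors from 0.851 to 1.12, filterByExpr with a minimum count of 10 and a total of 15, robust quasi-likelihood fits, Benjamini-Hochberg adjustment over all genes tested), within organ and day for labels and with day as a covariate between organs. A gene was called at over 2-fold with an adjusted p under 0.05. SE was derived from the quasi-likelihood F. Alternatives were DESeq2 1.42.0, its size factors, other filters, no fold threshold, a single fit of 12 groups, both days together, a covariate for libraries with mt-Co3 counts, the mouse number as a replicate block, and leaving out the paired-end library or each library. The fit was tested on simulated counts, with 200 genes changed by 4-fold per comparison. Figures were drawn with matplotlib 3.10.9 in Python 3.11.15.

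Libraries with the same mouse number deviated together from their group means in lung day 14 (correlations from 0.455 to 0.516, 4 pairs). They did so in liver day 14 as well (from 0.141 to 0.541, 3 pairs). Numbers were taken to pair samples there, and this pairing comes from the data. In both, libraries with the same number also shared the presence or absence of mt-Co3 counts, so pairing and that split cannot be told apart. Named genes were the 4 members, Smad4, up to 3 higher and 3 lower genes per pathway list and comparison by lowest adjusted p, and the 3 genes with the highest correlation to each member. The members and lists were chosen with earlier results of these data known. One allele of the mouse model is not reported here.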

Additional observations from a re-analysis of the deposited data

Results flagged for a closer look

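Of the 12 combinations of an Id gene and a group with 4 libraries, 1 held a library far from the other 3, and chance alone flags about 1 in 20 such groups. It was Id3 in lung day 14 labeled on, where mouse 4 measured 77.1 CPM against 40.6 to 45.2 CPM in the other mice, a gap of 0.876 of the group's range. The same library held 1637 CPM of summed fibroblast markers, against 319 to 589 CPM in the other mice of the group, and the part of these markers was not tested.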

How the results depend on the processing

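Counts of called Id genes changed as follows. In pancreas day 14 the count of 0 became 1 (Id1) without a fold threshold. In lung day 7 it became 1 (Id1) with DESeq2, and so did the day 7 difference between liver and lung responses with DESeq2 and with a single fit of 12 groups. In lung against pancreas labeled off the count of 3 became 2, without Id4, with no filter, with at least 10 counts in every library, with a single fit of 12 groups and with the mt-Co3 covariate. In liver against lung labeled off the count of 1 (Id3) became 0 without the paired-end library. In liver against lung labeled on the count of 0 became 2 (Id1 and Id3) without a fold threshold and 1 (Id3) with a single fit of 12 groups or with the mt-Co3 covariate. Leaving out each library in turn gave 0 to 1 in pancreas day 14 (1 without on mouse 1), 0 to 1 in liver day 7 (1 without off mouse 1), 0 to 2 in the day 7 response difference (2 without liver off mouse 1), 0 to 1 in liver against lung labeled off (0 without liver day 7 off mouse 2 or liver day 14 off mouse 2), 1 to 3 in lung against pancreas labeled off (1 without pancreas day 14 off mouse 1) and 0 to 2 in liver against lung labeled on (2 without liver day 14 on mouse 2, 1 without pancreas day 14 on mouse 1 or lung day 14 on mouse 4). The gene called in pancreas day 14 without on mouse 1 was Id4 (-6.96) and not Id1 (0.44), and on mice 2 and 3 held 0 counts of Id4. The cause of these changes was not tested.

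Some small log2 fold changes turned their sign. With both days fitted together, Id3 in pancreas day 14 was 0.018, Id2 in liver day 7 -0.035, Id1 in liver day 14 0.20, Id2 in lung day 14 0.00067, and the day 7 response difference -0.024 for Id2 and -0.13 for Id3. Without the paired-end library Id2 was -0.54 in liver day 7, -0.60 in the day 7 response difference and 0.070 in liver against lung labeled off, and Id4 was -0.024 in day 14 against day 7 labeled off. With the mt-Co3 covariate the Id2 response difference on day 7 was -0.034. Id3 in liver against pancreas labeled off was 0.020 with DESeq2 or its size factors, 0.042 without a filter, 0.032 with at least 10 counts in every library and 0.031 with a single fit of 12 groups, where Id4 in lung against pancreas labeled on was 0.044.

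Leaving out single libraries gave these ranges across 0 by label: Id1 from -0.12 to 0.25 in pancreas day 7 and -0.64 to 0.44 in liver day 14; Id2 from -0.19 to 0.15 in pancreas day 14, -0.54 to 1.67 in liver day 7, -0.40 to 0.10 in liver day 14, -0.12 to 0.26 in lung day 7 and -0.19 to 0.12 in lung day 14. Response differences ranged from -0.60 to 1.64 (Id2) and -2.58 to 0.68 (Id4) on day 7, and from -0.33 to 0.15 (Id2) and -0.83 to 0.10 (Id3) on day 14. Between organs the ranges were -0.20 to 0.26 for Id3 in liver against pancreas labeled off, -0.51 to 0.070 and -0.18 to 0.020 for Id2 in liver against lung labeled off and on, and -0.67 to 0.083 for Id4 in lung against pancreas labeled on. Between days they were -0.24 to 0.29 for Id4 labeled off and -0.035 to 0.13 for Id2 labeled on. Among the log2 fold changes of Id genes under an alternative, 54 turned their sign and 1133 kept sign and call. With the sign kept, 16 gained a call and 12 lost it.

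The replicate block changed no call. In lung day 14, with pairs taken from these same data, it gave Id1 -0.70 (edgeR adjusted p = 0.0245). In the other label comparisons with shared numbers the pairs share only a number (2 pairs each, correlations from -0.301 to 0.318), and the block gave Id1 0.35 in pancreas day 14 (edgeR adjusted p = 0.144). The mt-Co3 covariate was not run in the pancreas, where no library had such counts. Id4, at 0 to 38 counts per library, is limited by depth.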

Other observations

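The tissue-specific bHLH factors whose partners the Id proteins sequester also differed by organ. In liver against pancreas labeled on, 4 of 6 tested were higher and 2 lower, where 40.6% of all genes passed the adjusted threshold and 10 of 10 fibroblast markers were lower, and the lower ones were the mesenchymal factors Twist1 (-1.99) and Twist2 (-1.09). Bhlha15, an acinar factor, was among the higher ones (1.86) but was lower in liver than in pancreas labeled off (-1.45). The difference was not tested. Acinar markers summed to 777 to 3567 CPM in the pancreas and 4.96 to 372 CPM in the liver, and their part was not tested. Tcf21, a mesenchymal factor, was higher in lung than in pancreas labeled off (2.61) and on (3.16), where 34.4% and 27.5% of all genes passed. Levels were low for Tcf21 (1 to 46 counts per library, at most 2.25 CPM) and Bhlha15 (5 to 119 counts, at most 3.92 CPM). Among Hes and Hey repressors, Heyl was lower in lung than in pancreas labeled off (-2.17) and on (-2.53), and Hes6 was higher labeled off (0.60). None of either list passed by label in any organ or at any day, where 4 to 6 and 4 genes were tested, respectively. Of all genes, 0% to 12.9% passed in these comparisons.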
